A study of Mus musculus with 2 samples.

Results

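The nuclear receptors and their coregulators were examined on a western diet in the livers of Lpcat3fl/fl mice carrying Albumin-Cre (L-Lpcat3 KO, called knockout here) and of Lpcat3fl/fl control mice. The members were 34 receptor genes and 6 coregulator genes listed by symbol, and a probe set belonged to a member when the platform annotation gave it that symbol alone. Of the 40 members, 38 had at least 1 such probe set, among 18193 genes in all, and they had 106 probe sets. The oxysterol receptor gene Nr1h2 and the corepressor gene Ncor1 had no probe set annotated with that symbol alone and were not analysed here. Each group was 1 Affymetrix whole-genome mouse array, hybridized with RNA pooled from 5 males. They were 16 weeks old, had been switched to western diet at 7 weeks and kept on it for 9 weeks, and went without food for the last 6 hr. The mice of both groups were homozygous for the floxed allele, and the groups differed by the Albumin-Cre transgene, so an effect of the transgene itself cannot be told apart from loss of Lpcat3. Albumin-Cre acts in hepatocytes, and the study holds that Lpcat3 likely persists in cells without the transgene, such as Kupffer and endothelial cells.

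Nuclear receptors are transcription factors that bind hormones, sterols, fatty acids, bile acids or drugs, or that work without a known ligand, and switch genes through short hexamer sites in DNA. Many bind as a dimer with a retinoid X receptor. Coactivators such as the Ncoa and Ppargc1 proteins dock on the receptor and open chromatin, whereas corepressors such as NCoR1 and RIP140 (Nrip1) recruit deacetylases. In liver these receptors set bile acid synthesis (FXR, SHP, LRH-1), sterol efflux and lipogenesis (LXR), fatty acid oxidation (PPARalpha), drug metabolism (CAR, PXR) and part of the circadian clock (REV-ERB, ROR). Lpcat3 itself is a target gene of LXR.

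The signals are MAS5 intensities on a linear scale. A floor of 86.6, the median of all values, replaced anything lower before log2 ratios (knockout over control) were formed. The representative of a gene was its brightest probe set by mean log2 signal, and the gene was measured if that set reached the floor on 1 array or both. With 1 side below the floor, a ratio is only a bound, shown by the words at least. Pooling left 1 sample per genotype, so there is no replicate check, no test between genotypes was possible and the number of arrays limits the precision. Probe sets for the same gene had log2 ratios with a pooled SD of 0.29 over 4476 genes, and it was 0.37 for probe sets with a mean signal from the floor to 200, 0.29 from 200 to 1000 and 0.20 above 1000. These SDs leave out the spread between mice. The 1 measured Lpcat3 probe set read 5173 in control and 2198 in knockout liver (log2 ratio -1.23); the sources used here do not place it relative to the deleted stretch. A 2-fold threshold was passed by 332 genes upward and 86 downward of 12290 measured, or by 235 and 128 after each array was centred on its median.

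Among the nuclear receptors and coregulators, the fatty acid receptor gene Pparg and the clock repressor gene Nr1d1 were at least 2-fold higher in knockout liver, and no member passed 2-fold downward. Of the 37 measured members these 2 made 5.41%, beside 2.7% of all measured genes that were 2-fold higher and 0.7% that were 2-fold lower. At 1.5-fold, 4 members were higher (10.8%) and 3 were lower (8.11%), against 9.07% and 3.83% of all measured genes. The 3 lower were Nr4a2, Nr6a1 and Ppargc1a. The measured probe sets of Nr4a2 disagreed in direction, and the size for Ppargc1a depended on the probe set. Another 27 measured members, at the floor on both arrays, lay within 1.5-fold. For Ppard, Rara and Nr2f1 1 side was below the floor, and their bounds do not place them within it. The median log2 ratio of the members was -0.15, with 23 of 37 below 0 (62.2%). For all measured genes the median was 0.01, with 48.8% below 0. With each array centred on its median the members were at -0.24 and all genes at -0.10, so the members stayed 0.14 below all genes, compared with 0.16 before. That centring also put Ppara, Nr1d2, Rora and Nrip1, which lay just above 0, below it. The hepatocyte markers had a median of -0.15 on the same arrays.

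**Figure D1:**
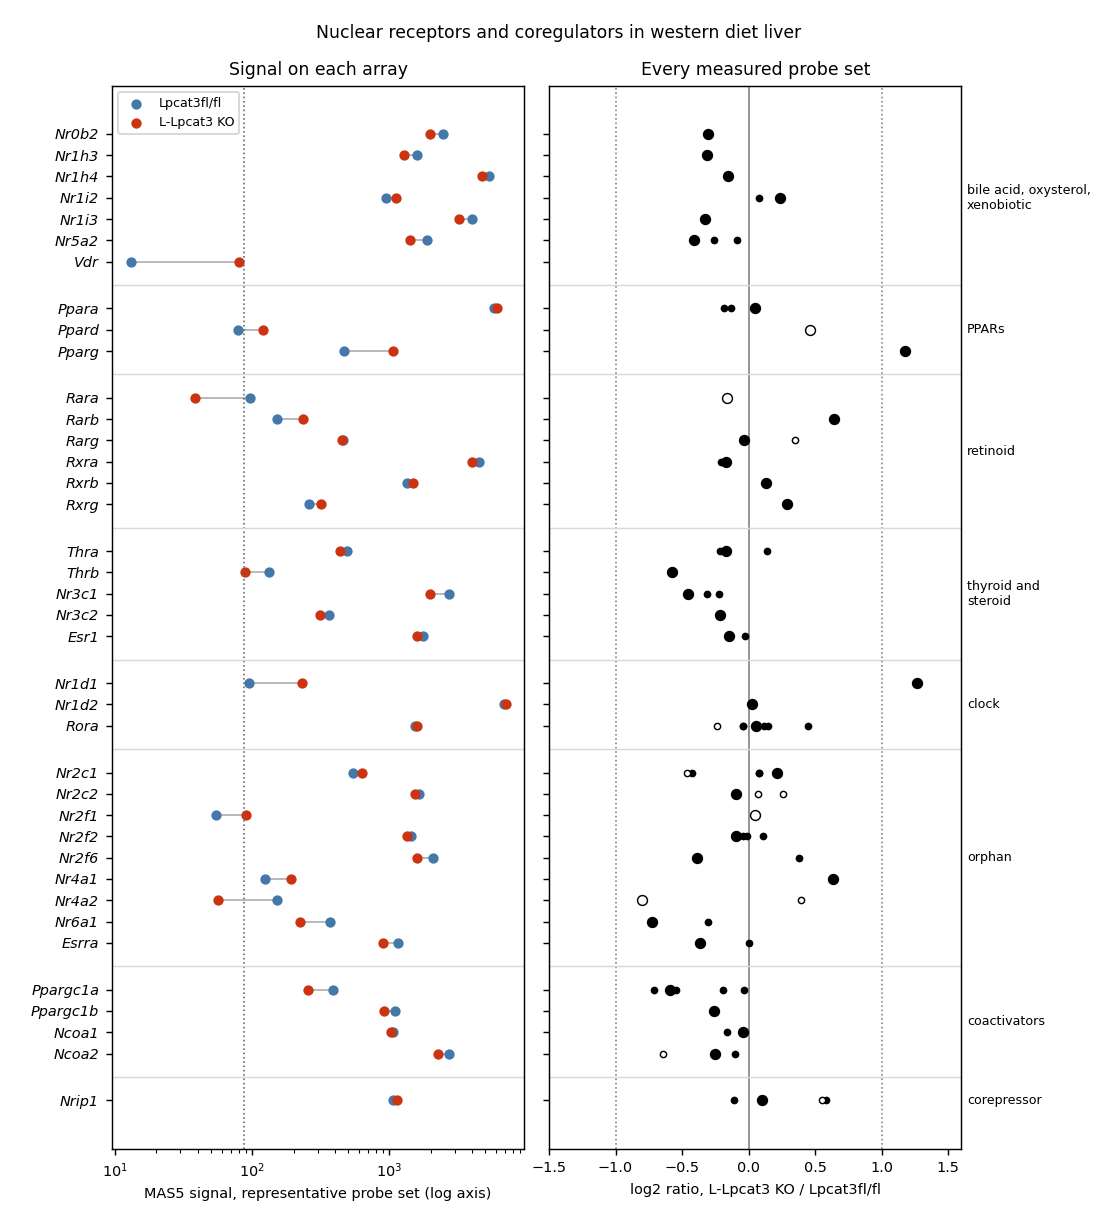
Left, MAS5 signal (log axis) of the representative probe set of each member on the Lpcat3fl/fl array (blue) and the L-Lpcat3 KO array (red), with the floor of 86.6 dotted; right, log2 ratio of L-Lpcat3 KO over Lpcat3fl/fl for every measured probe set, large points for the representative and open points where 1 side is below the floor, with 2-fold dotted. Pparg and Nr1d1 lie beyond 2-fold on the right, and Nr2f6, Nr4a2 and Rora have probe sets on both sides of 0.

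PPARgamma, the product of Pparg, drives fat storage genes in adipose tissue and in fatty liver, and is also active in macrophages. Pparg read 468 in control and 1056 in knockout liver, a 2.26-fold difference (log2 ratio 1.17) on its only probe set. Of all measured genes, 201 had a higher ratio, and of the 4860 genes with a mean signal from 200 to 1000, 3.15% were at least 2-fold higher. The probe set is of a type that detects several transcripts of the same gene, so transcripts from different starts are not separated. Nr1d1 encodes REV-ERBalpha, a heme-binding repressor of the clock whose mRNA cycles over the day. Its signal was 95.4 in control, just above the floor, and 230 in knockout liver, a 2.41-fold difference (1.27) on its single probe set. A higher ratio was seen for 158 genes. In its range of mean signal, from the floor to 200, 5.25% of 2401 genes were at least 2-fold higher. With a pseudocount of 86.6 in place of the floor Nr1d1 was at 0.80 and no longer 2-fold, while Pparg remained 2-fold higher at 1.04. The sources used here do not give the hour at which the livers were taken.

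The 250 bases before each RefSeq start of Pparg and Nr1d1 are shown because these were the members that differed by 2-fold. Capitals mark the AGGTCA hexamer, to which many nuclear receptors bind, and both strands were searched for it and for the CACGTG E-box, to which CLOCK and BMAL1 bind.
Pparg, upstream start, GRCm38.p6 chr6:115360894-115361143, plus strand: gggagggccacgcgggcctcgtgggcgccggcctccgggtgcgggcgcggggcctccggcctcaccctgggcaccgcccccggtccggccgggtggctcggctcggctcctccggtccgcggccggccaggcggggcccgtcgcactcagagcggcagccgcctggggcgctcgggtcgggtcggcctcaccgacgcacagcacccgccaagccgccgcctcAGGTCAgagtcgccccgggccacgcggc
Pparg, middle start, GRCm38.p6 chr6:115362099-115362348, plus strand: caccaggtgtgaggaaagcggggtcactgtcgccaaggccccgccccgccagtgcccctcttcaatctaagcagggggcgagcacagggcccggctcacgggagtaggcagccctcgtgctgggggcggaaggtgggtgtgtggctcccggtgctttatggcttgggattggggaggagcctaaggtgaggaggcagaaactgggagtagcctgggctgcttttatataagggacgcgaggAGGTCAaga
Pparg, downstream start, GRCm38.p6 chr6:115421816-115422065, plus strand: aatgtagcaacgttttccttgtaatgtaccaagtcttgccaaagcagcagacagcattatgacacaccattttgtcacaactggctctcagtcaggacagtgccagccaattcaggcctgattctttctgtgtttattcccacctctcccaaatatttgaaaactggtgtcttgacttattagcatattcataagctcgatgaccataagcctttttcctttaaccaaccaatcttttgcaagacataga
Nr1d1, only start, GRCm38.p6 chr11:98775378-98775627, minus strand: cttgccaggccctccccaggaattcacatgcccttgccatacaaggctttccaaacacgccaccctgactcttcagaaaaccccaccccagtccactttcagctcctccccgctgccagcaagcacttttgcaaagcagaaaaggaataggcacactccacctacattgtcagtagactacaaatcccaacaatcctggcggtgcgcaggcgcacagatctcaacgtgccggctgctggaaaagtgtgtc
RefSeq gives 3 starts for Pparg, and 2 of them had an AGGTCA hexamer, at 28 and 9 bases before the start. The Nr1d1 sequence held neither motif. Of all 32851 RefSeq promoter stretches of this length, 14.0% held AGGTCA on either strand, and of the 53 stretches of the 36 members in the table, 18.9% did. The E-box was in 6.02% of all stretches and 7.55% of the members' stretches. A match in these letters is a description and not a binding site.

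Ppara, the receptor that turns on fatty acid oxidation in fasting, read 5818 in control and 6023 in knockout liver. Its log2 ratio was 0.05, and the other probe sets of Ppara were at -0.19 (6282 and 5520) and -0.13 (3074 and 2808), so the 3 sets span 0. Ppard, the broadly expressed family member, was near the floor, at 79.0 and 119, which makes it at least 1.37-fold higher (log2 ratio 0.59 without a floor). A ratio of Pparg to Ppara cannot be read from these signals, since different probe sets have different affinities.

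Of the receptors for oxysterols, bile acids and xenobiotics, none of 6 measured genes reached 1.5-fold and 5 of the 6 were below 0, with a median of -0.31. Nr1h3, which encodes LXRalpha, went from 1591 in control to 1280 in knockout liver (-0.31). Nr1h4, the bile acid receptor FXR, was at 5268 and 4733 (-0.15), and Nr0b2, the DNA-binding-deficient repressor SHP that FXR induces, was at 2443 and 1980 (-0.30). Nr5a2, encoding LRH-1, which activates bile acid synthesis genes, was at 1863 and 1403 (-0.41), with -0.26 and -0.08 on its other measured probe sets. All 3 measured sets of Nr5a2 were lower in knockout liver, and the differences ran from near 0 to 1.33-fold. For the drug-sensing receptors, Nr1i3 (CAR) was at 4008 and 3201 (-0.32) and Nr1i2 (PXR) at 946 and 1114 (0.24; 0.08 on its other set). Nr1i2 was the one gene of the group that was higher. Vdr, the vitamin D receptor, was below the floor on both arrays, at 13.0 and 80.1 on its brighter probe set, and no ratio is given.

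Retinoid receptors showed no common direction, with 3 of 6 genes above and 3 below 0. Rarb, a retinoic acid receptor that is itself induced by retinoic acid and is expressed in stellate cells, read 151 in control and 235 in knockout liver, a 1.56-fold difference (0.64) on a single probe set. Rxrg, also known from stellate cells and muscle, was at 258 and 315 (0.29). Rxra, the main dimer partner in hepatocytes, was at 4451 and 3964 (-0.17) and at 686 and 593 (-0.21) on its other measured probe set. Rxrb was at 1351 and 1480 (0.13). Rarg was at 461 and 449 (-0.04), and its second set, at 81.2 and 110, was at least 1.27-fold higher. Rara went from 97.2 to 38.0, so it was at least 1.12-fold lower; without a floor its log2 ratio was -1.35, at signals where the values carry most noise.

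All 5 measured receptors of thyroid and steroid hormones were below 0, with a median of -0.21, and none reached 1.5-fold. The glucocorticoid receptor gene Nr3c1 was at 2730 and 1988 (-0.46) on its brightest probe set, at 1270 and 1025 (-0.31) on the next, and at 821 and 704 (-0.22) on the third. The 3 sets thus lay on the same side of 0, and the first was 1.37-fold lower in knockout liver. Thrb, the main thyroid hormone receptor of hepatocytes, went from 132 to 88.6 (-0.57), close to the floor and on a single set. It passed 1.5-fold under median centring (-0.67), quantile scaling (-0.66) and loess scaling (-0.65), and was at -0.32 with a pseudocount. Under median centring its knockout side fell below the floor, so that value is a bound. Thra, the other thyroid hormone receptor gene, was at 493 and 438 (-0.17), with -0.21 and 0.14 on its other sets. Nr3c2, the mineralocorticoid receptor, was at 363 and 314 (-0.21). Esr1, estrogen receptor alpha, was at 1746 and 1575 (-0.15), with -0.02 on its other measured set.

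The other clock receptors were close to 0, just above it before median centring and below it after. Nr1d2, which encodes the paralogue REV-ERBbeta, had 6878 in control and 7003 in knockout liver (0.03), on a probe set of high signal. Rora, an activator that competes with the REV-ERBs for the same DNA element, was at 1525 and 1587 (0.06). Its 7 measured probe sets ran from -0.24, a bound, to 0.44, with 4 above and 3 below 0.

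Orphan receptors held the remaining receptor genes beyond 1.5-fold. Nr4a1, encoding Nur77, is an immediate early gene, switched on within minutes by stress and growth signals. It went from 124 in control to 192 in knockout liver, a 1.55-fold difference (0.64), and had 1 probe set. For its relative Nr4a2 (Nurr1) the measured probe sets disagreed: one went from 151 to 56.3, at least 1.74-fold lower, and the other from 37.7 to 114, at least 1.31-fold higher. The remaining 4 sets of Nr4a2 were below the floor, so no direction is given for this gene. Nr6a1, the germ cell nuclear factor, was lower on both of its measured sets, from 369 to 223 (-0.73) and from 257 to 208 (-0.30).

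Nr2f6 (EAR2) had opposite values, -0.39 (2089 and 1599) and 0.38 (614 and 797), so its direction depends on the probe set. Nr2f2 (COUP-TFII), prominent in venous endothelium, was at 1437 and 1348 (-0.09), and its 4 measured sets ran from -0.09 to 0.11. Nr2f1 (COUP-TFI) reached the floor in knockout liver alone, at 54.2 and 89.8, and was at least 1.04-fold higher (log2 ratio 0.73 without a floor). Nr2c2 (TR4) was at 1644 and 1540 (-0.09), and its paralogue Nr2c1 (TR2) at 539 and 627 (0.22), with sets from -0.47, a bound, to 0.22. Esrra, the estrogen-related receptor that works with PGC-1 on mitochondrial genes, was at 1152 and 893 (-0.37) on its brighter set and read 182 on both arrays on the dimmer one.

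All 4 coactivator genes were below 0. The lowest was Ppargc1a, encoding PGC-1alpha, a fasting-induced coactivator of gluconeogenesis and mitochondrial genes, which went from 386 in control to 256 in knockout liver, a 1.51-fold difference (-0.59). All 5 probe sets of Ppargc1a were lower, at -0.71 (371 and 227), -0.59, -0.54 (327 and 224), -0.19 (304 and 266) and -0.03 (300 and 293), so the size of the difference depends on the probe set. Its paralogue Ppargc1b was at 1096 and 917 (-0.26). Ncoa2 (TIF2), a p160 coactivator, was at 2701 and 2262 (-0.26), at 264 and 247 (-0.10) on a dimmer set, and at least 1.56-fold lower on a set that went from 135 to 69.5. Ncoa1 (SRC-1) was at 1058 and 1028 (-0.04), with -0.16 on its other measured set. The corepressor gene Nrip1 was on the other side of 0, at 1059 and 1139 (0.10), and its dimmer sets read 163 and 244 (0.59), 110 and 102 (-0.11), and 72.0 and 127, at least 1.46-fold higher.

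**Figure D2:**
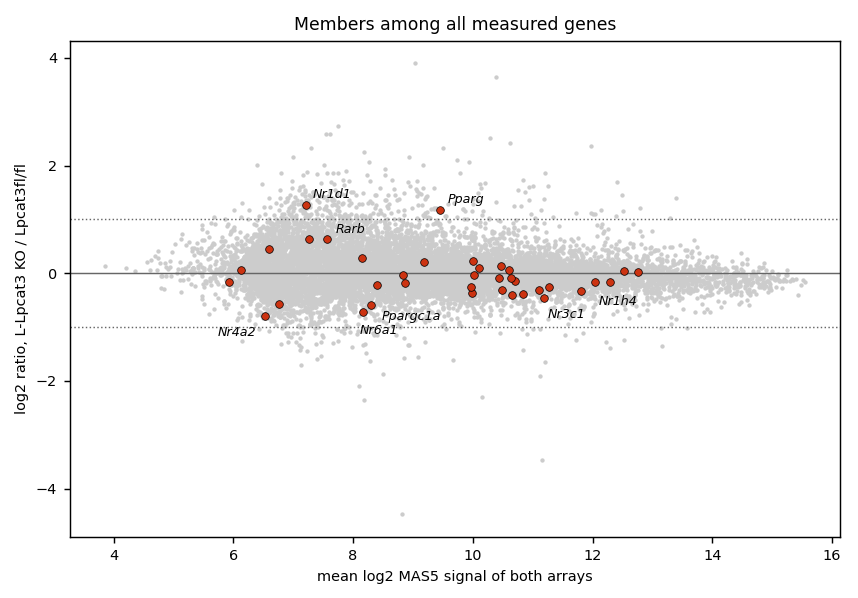
Each grey point is a measured gene, placed by its mean log2 MAS5 signal (x axis) and its log2 ratio of knockout to control (y axis); red points are the 37 measured nuclear receptors and coregulators, and 2-fold is dotted. The members beyond 1.5-fold have low or middle signals, and the 21 members with a mean signal over 1000 lie between -0.46 and 0.24.

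The members with strong signals differed little between the arrays. Of the 21 with a mean signal over 1000, none reached 1.5-fold in either direction, 15 were below 0 and their median was -0.15. Of the 4258 genes in that range, 2428 were below 0, and the median was -0.04. Each of the 7 members beyond 1.5-fold had a mean signal under 1000. For 20 members several probe sets were measured; in 9 of these the sets lay on the same side of 0, and in 11 they had both signs.

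The rest of the family was mostly dim in these livers. Of 15 further nuclear receptor genes, 11 had a probe set and 3 reached the floor, with Hnf4a, the receptor that maintains hepatocyte identity, at 13658 and 11244 (-0.28). The 4 measured sets of Hnf4a ran from -0.56 to -0.28. Esrrb, at 56.1 and 96.3, was at least 1.11-fold higher. Of 30 further coregulator genes 29 were measured, with a median of 0.03. Those at the floor on both arrays ran, on their representative probe sets, from -0.52 for the deacetylase Sirt1 to 0.51 for the acetyltransferase Kat5. The other measured set of Kat5 was at -0.05, and dimmer sets of some genes lay outside this range. Ncoa7, at 63.1 and 118, was at least 1.36-fold higher.

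Beside the receptors, lists of genes known to respond to them were read off the same arrays, as a description. The PPARgamma list had 7 of 8 measured genes at least 2-fold higher and a median of 1.58, with the lipid droplet protein gene Cidea at 3.64, and Plin4 (0.35) the one under 2-fold. One of the 7, Adipoq, is also an adipocyte marker and is a bound from a control signal of 38.9, and the 3 probe sets of Fabp4 ran from 0.11 to 1.73. All 13 macrophage markers were higher on the same arrays (median 1.17), and their part in these values was not tested. Several of these genes were shown by the study from these arrays, so their direction is not independent evidence. The PPARalpha list, next to the small values of Ppara, had 2 of 16 higher, Pdk4 (1.28) and Fgf21 (1.22), and a median of 0.09. The LXR list had 1 higher, the phospholipid transfer protein gene Pltp (1.16), and 1 lower, Lpcat3 itself, of 11, with a median of -0.03. Lpcat3 is the gene deleted in knockout liver, so its lower value was set by the design and does not describe LXR targets. It is counted in that median. None of 9 FXR targets reached 2-fold (median -0.24).

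Of the 4 genes that SHP represses, 2 were at least 2-fold lower in knockout liver, the bile acid hydroxylase genes Cyp7b1 (-1.34) and Cyp7a1 (-1.24), while the bile acid uptake gene Slc10a1 was at -0.40 and the hydroxylase gene Cyp8b1 at 0.32. Nr0b2, the gene of SHP, was itself lower, by 0.30. Of the listed genes that REV-ERBs repress, none of 5 passed 2-fold and the median was -0.28. That median is the value of Elovl3, which is not a core clock gene. With only genes at the floor on both arrays, which leaves out Arntl, it was -0.14. Cry1, a clock repressor, went from 654 to 377 (-0.79). Arntl, which encodes BMAL1, went from 150 to 82.2, a log2 ratio of -0.79 or lower because the knockout side was below the floor. Its other measured set, below the floor in control, was at 0.44 or higher, so no direction is given for Arntl. Clock genes under E-box control, a class to which Nr1d1 belongs but in which it was not counted, had 9 of 10 below 0 and a median of -0.29. Of 10 other immediate early genes, the class of Nr4a1, 5 were at least 2-fold higher, with Egr1 (2.32), Jun (2.11) and Fos (1.70) the highest, and the median was 1.21, with Fosb and Ier3 entered at their bounds. Ier2 (-0.25) and Junb (-0.21) were below 0.

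The glucocorticoid receptor list had 1 of 11 genes 2-fold higher, Igfbp1 (1.11), and a median of 0.08. The CAR and PXR list had 1 of 11 lower, Cyp2b9 (-1.09), and a median of 0.07. The thyroid hormone receptor (0.01, 5 genes) and ERR and PGC-1 lists (-0.13, 8 genes) had no gene at 2-fold. Nor had the retinoic acid receptor list, whose 4 genes ran from -0.70 for Cyp26a1, a retinoic acid hydroxylase gene, to 0.60 for Lrat, a retinol esterification gene of stellate cells. Its median was -0.07, and it was -0.43 with a floor at the 75th percentile and 0.29 with a floor at the 25th. List medians this close to 0 change sign or size with the shift of all genes under median centring, from 0.01 to -0.10.

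**Figure D3:**
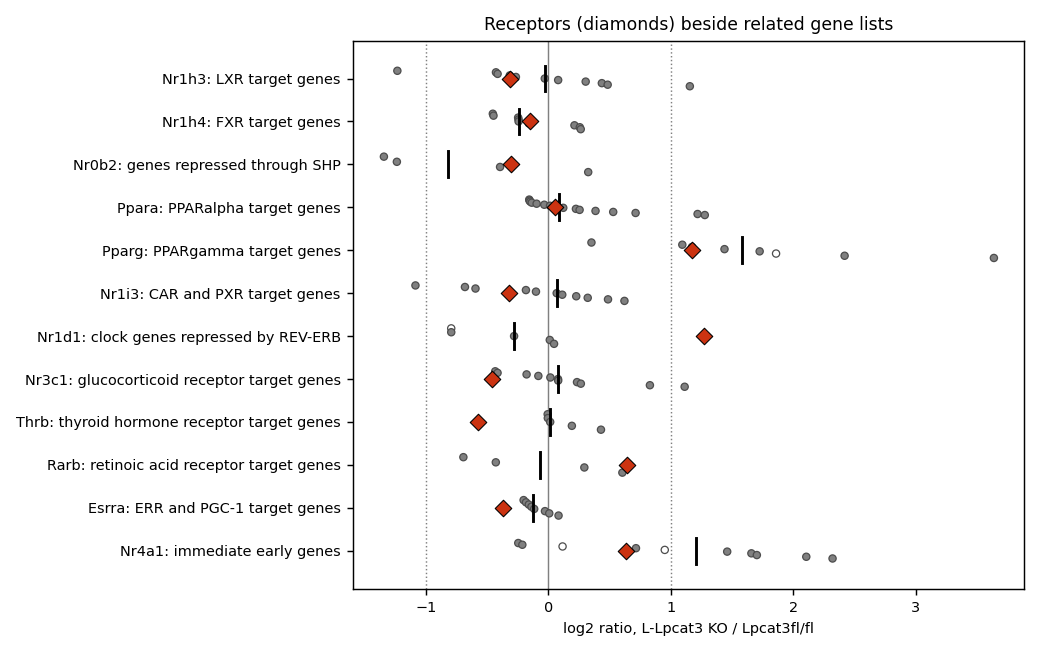
Each row pairs a receptor (red diamond) with a list of related genes (grey points, open where 1 side is below the floor), placed by log2 ratio of L-Lpcat3 KO over Lpcat3fl/fl; a black bar gives the list median and the dotted lines are at 2-fold. Pparg (1.17) and its list (1.58) both lie to the right of 2-fold. Nr1d1 (1.27) lies to the right, whereas the genes repressed by REV-ERB have a median of -0.28, or -0.14 without Arntl.

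Several members are also expressed outside hepatocytes, and markers of other cells differed on the same arrays. In whole liver, more cells of a type and more RNA per cell cannot be told apart. All 13 macrophage markers were higher in knockout liver (median 1.17, summed signal 15294 and 33854). The summed signal of the 5 measured B cell markers was 898 and 4537, and 3 of them, Cd79a, Cd79b and Ms4a1, reached the floor in knockout liver alone, so their direction was fixed by the filter. The same holds for both measured adipocyte markers, Adipoq (38.9 and 314) and Retn (64.4 and 218), and Lep, another adipocyte gene, was below the floor on both arrays. Of the stellate cell and fibroblast markers 7 of 8 were above 0 (0.70, 15358 and 24409), and of the endothelial markers 8 of 9 (0.37, 6599 and 8679). The summed signal of the 4 measured neutrophil markers was 451 and 667, with 3 of them below the floor in control. Of the T cell and NK cell markers Cd3e (19.3 and 115) and Nkg7 (54.3 and 131) reached the floor in knockout liver alone. Cd3g, Cd3d and Cd8a were below the floor, as were the cholangiocyte markers Krt19 and Krt7, with the other 2 at a median of -0.10. Of 9 hepatocyte markers 7 were below 0 (summed signal 266962 and 246273). Pparg is known from macrophages and adipocytes, Rarb and Rxrg from stellate cells, and Nr4a1 from macrophages, and the part of these cells in the values of those members was not tested.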

How the data were processed

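Each genotype was 1 Affymetrix array carrying liver RNA of 5 pooled mice. The authors made the deposited intensity values with MAS5 (version not given in the sources used here) and their methods name GenespringGX for the analysis. The intensities are linear, and their mean after trimming 2% at either end equalled 500 on each array; this global scaling assumes equal total signal, and values near background are the noisiest. Present and absent calls were not used here.

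The platform annotation gave 34958 of 45101 probe sets 1 symbol, 932 several and 9211 none; symbols were brought up to date by gene identifier with RefSeq GRCm38.p6, and 64 control probe sets were set aside. After flooring, genes were compared at 2-fold and 1.5-fold through their representative probe set. No test between genotypes was possible with 1 array each. The counting was tested on simulated data. The members and gene lists were chosen with earlier results of these data known. By rule every member was named, and at most the 3 genes of largest ratio per related list. Members were given both signals for all measured probe sets where any differed by 1.5-fold, and for the representative otherwise. Values of further probe sets were added after they were seen. So were Plin4, Fabp4, Cyp8b1, Esrrb, Ncoa7, Fosb, Ier3, Bhlhe41, Cry2, Per2, Junb and Ier2. Alternatives were median centring, quantile or loess scaling (span 0.3), a floor at percentile 25 or 75 or none, a pseudocount equal to the floor, the mean of probe sets, probe sets of a single transcript, 1.5-fold or 3-fold thresholds, and genes at the floor on both arrays. Software: Python 3.11.15 with pandas 2.3.3 and numpy 2.4.6, loess from statsmodels 0.14.6, scipy 1.17.1, and plots by matplotlib 3.10.9.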

Additional observations from a re-analysis of the deposited data

How the results depend on the processing

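The number of members at least 2-fold higher, 2 in the report, became 4 at a threshold of 1.5-fold and 0 at 3-fold. It was 1 with a floor at the 75th percentile or with a pseudocount, which left Pparg, and 1 with probe sets designed for a single transcript, which left Nr1d1, since Pparg has no such set. The number at least 2-fold lower, 0 in the report, became 3 at 1.5-fold, and 2 with a floor at the 25th percentile or with no floor (Rara and Nr4a2, both with 1 side below the median of all values). The lower floor also made Vdr 2-fold higher, in a total of 3. The median log2 ratio of the members ran from -0.24 to -0.07 over the 10 alternatives that bear on it, within 0.29 of the main value. Of 346 pairs of a member and an alternative, 13 moved by more than 0.29, in 7 members: Nr1d1 (0.80 with a pseudocount), Nr2c1, Nr2f1, Nr2f6, Nr4a2, Ppargc1a and Rara. Nr4a2 ran from -1.42 to 0.39 and Ppargc1a from -0.71 to -0.03. Of 150 medians of related lists 8 moved by more than 0.29, and that of the genes repressed by REV-ERB became 0.03 with probe sets designed for a single transcript, where that of the retinoic acid receptor list became 0.29. Over all measured genes, the 332 higher and 86 lower became 654 and 242 with no floor, 1132 and 479 with a floor at the 25th percentile, 88 and 25 at the 75th, 194 and 48 with a pseudocount, 1115 and 471 at 1.5-fold, and 55 and 11 at 3-fold. No paired analysis was possible because each genotype had 1 array. Signal close to background limits Nr1d1, Thrb, Ppard, Rara, Rarb, Nr2f1, Nr4a1 and Nr4a2.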
